A study of Homo sapiens with 6 samples.

Results

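The BCL2 family is described here through 10 genes, BCL2, BCL2L1, MCL1, BAX, BAK1, BID, BAD, BIK, BBC3 and BCL2L11, chosen by symbol from the annotation of an Illumina bead array. They are carried by 23 of the 47323 probes on each array and count as 10 of the 20046 annotated genes. RNA came from HepG2, a long-established cell line grown out of a human liver tumour, in 2 groups of 3 samples with 1 array each. One group is labelled control and the other PBLD overexpressed, and the comparison asks which transcripts differ when PBLD, a protein with a phenazine biosynthesis-like domain, is raised. The vector, the way it was delivered, the time after delivery, and whether the control cells received an empty vector or the overexpressing cells are 1 clone are not given in the sources used here. No label says whether samples within a group were grown as separate cultures, and every p-value therefore rests on a spread between arrays that may be technical.

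BCL2 family proteins decide whether the outer membrane of the mitochondrion stays closed. BAX and BAK1 form pores in that membrane through which cytochrome c leaves and switches on caspases, while BCL2, BCL2L1 (BCL-XL) and MCL1 hold them in check. The BH3-only proteins BID, BAD, BIK, BBC3 (PUMA) and BCL2L11 (BIM) carry death signals to other family proteins. In hepatocytes MCL1 and BCL-XL are known as the main guards against cell death. Much of the family's control lies in protein cleavage, phosphorylation and turnover, which an RNA array does not measure.

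All values are log2 intensities as deposited, and a change is the mean of PBLD overexpressed minus control. A probe or gene is called higher or lower where the p-value of limma, adjusted by Benjamini-Hochberg over all probes, is under 0.05. A gene is counted by its probe with the highest mean. The arrays each had a median of 8, and 39.3% to 41.5% of their probes lay above a background limit of 8.06 to 8.09 set from 590 probes of receptor and keratin-associated genes that liver cells do not express. PBLD rose by 4.64 on its brightest probe (SE 0.07, limma adjusted p = 5.29e-16), above background on 1 control array and on all 3 PBLD arrays, so that the controls near the limit may understate the rise. A second PBLD probe rose by 4.40, and the other two stayed at background in both groups (0.05 and -0.05). Of 10 listed liver markers 9 were measured, and all 9, AFP and ALB included, were above background on all 6 arrays. Their mean level was 14.97 to 15.15 in controls and 14.80 to 14.94 in PBLD cells. All 9 had a change below 0, and 4 were called lower, beside 4.2% of all genes. These 4 were TTR (-0.59), SERPINA1 and APOB (-0.31 each) and APOA1 (-0.30). Of 12 markers of blood, endothelial, connective tissue and glial cells, 8 were above background on no array and 1, CD14, on all 6, with mean levels of 8.04 to 8.12 and 8.05 to 8.06. In RNA from whole cultures, fewer cells that express a gene and less RNA per cell cannot be told apart.

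In PBLD cells BAX and BID were higher, as was MCL1 on 1 of its 2 probes, by 1.16-fold to 1.35-fold. None of the 10 genes was called lower. BCL2L1, BAD and BBC3 were measured above background and did not pass, BAK1 and BCL2L11 were higher on every PBLD array without passing, and BCL2 and BIK were above background on no array. By the brightest probe, 2 of the 10 genes rose and 8 did not pass, against 5.81% of all genes called higher, 4.2% called lower and 10% called in either direction. The count of 2 was 0 or 1 whichever single array was left out. Of the 8 genes with a probe above background on at least 3 arrays the same 2 rose, beside 10.6% of all genes that bright, a share that for 8 genes comes close to 1. Of the 23 probes, 4 rose and 0 fell, against 3.5% of all probes called higher, and the 4 belong to 3 genes. The median change of the 10 genes was 0.11, beside 0.01 over all genes. Over the 8 above background it was 0.14, beside 0.02 over all genes that bright. A change above 0 was found for 9 of the 10, as for 53.7% of all genes, with BCL2 and BIK among the 9 though at background.

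MCL1 encodes a short-lived guard, and its probe ILMN_1756806 gave the largest change of the 10 genes. It read 8.92, 9.03 and 9.12 on the control arrays and 9.37, 9.53 and 9.48 on the PBLD arrays. Every PBLD array stood above every control array, by at least 0.24. The change was 0.43 (SE 0.07, 95% interval 0.28 to 0.58, limma adjusted p = 0.000932), or 1.35-fold. The brighter MCL1 probe, ILMN_1803988, read 10.038, 10.003 and 9.842 in controls and 10.087, 10.251 and 9.961 in PBLD cells. Its groups overlap, since PBLD replicate 3 lay below control replicates 1 and 2. Its change was 0.14 (SE 0.08, 95% interval -0.03 to 0.31, limma adjusted p = 0.491). Both probes are annotated to the long transcript of MCL1, and their changes differed by 0.29. With 3 arrays a group an exact permutation test of that difference cannot go below p = 0.1, so whether the probes differ could not be settled. By the rule of the brightest probe MCL1 is counted as not passing, and as changed only on the dimmer one. The call on ILMN_1756806 was lost after normexp background correction, at a change of 0.55 and a limma adjusted p of 0.0708.

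BCL2L1 is the other guard of hepatocytes. Its brightest probe, ILMN_1654118, read 13.88, 13.61 and 13.58 in controls and 13.67, 13.91 and 13.77 in PBLD cells. PBLD replicate 2 read highest and control replicate 1 close behind it, and the groups overlap. The change was 0.09 (95% interval -0.09 to 0.27, limma adjusted p = 0.776). The second probe, ILMN_1742410, spread from 9.98 to 10.58 within the PBLD group, with all 3 controls between these ends, and its change was -0.05 (95% interval -0.28 to 0.18). BCL2, the founding member, was at background on each of its 4 probes, where changes ran from -0.01 to 0.09, so no statement on its level can be made from these arrays.

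**Figure D1:**
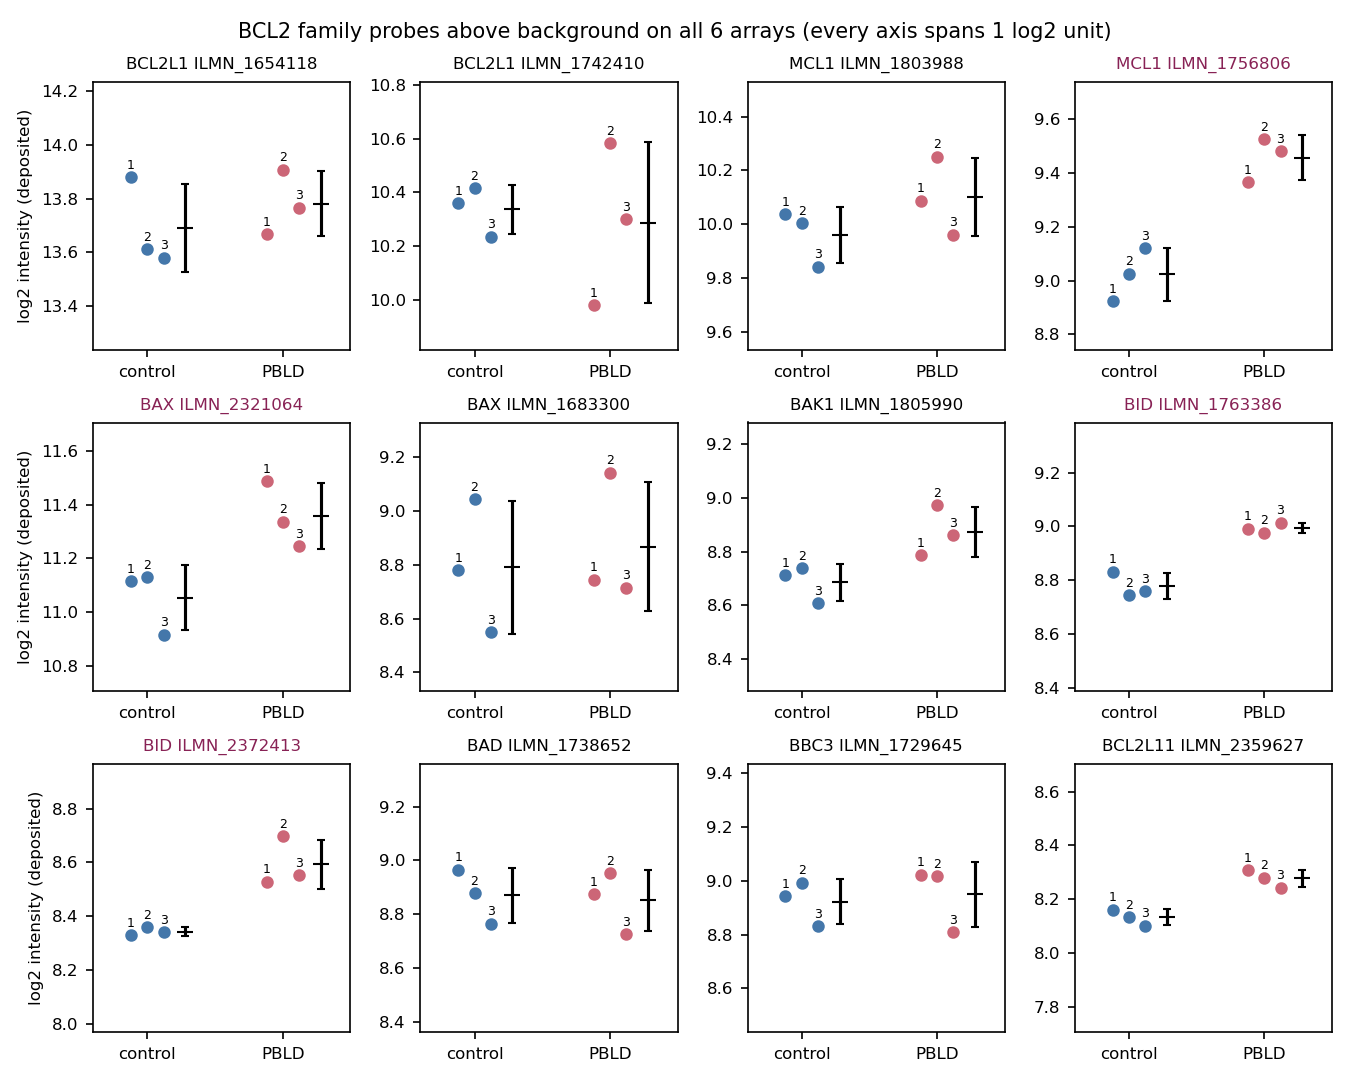
Deposited log2 intensity on each array (numbered points, control in blue and PBLD overexpressed in red) for the 12 family probes above background on all 6 arrays, with the mean and SD (n = 3) beside each group and every vertical axis spanning 1 log2 unit. The probes with coloured titles passed at an adjusted p under 0.05, and in these 4 panels all PBLD points lie above all control points, as they also do for BAK1 and BCL2L11.

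Of the pore formers, BAX rose. Its brightest probe, ILMN_2321064, read 11.12, 11.13 and 10.92 in controls and 11.49, 11.34 and 11.24 in PBLD cells. The lowest PBLD array stood 0.11 above the highest control array, and replicate 3 was the lowest array in both groups. The change was 0.30 (SE 0.08, 95% interval 0.14 to 0.47, limma adjusted p = 0.0266), or 1.23-fold. The second BAX probe above background, ILMN_1683300, read 8.78, 9.04 and 8.55 in controls and 8.75, 9.14 and 8.71 in PBLD cells. It varied more within each group (SD 0.25 and 0.24) than between them, with a change of 0.08 (95% interval -0.17 to 0.32). The changes of these BAX probes, which are annotated to different transcripts, differed by 0.23, which the same limit leaves without a usable test. The other BAX probe was above background on no array. The call on ILMN_2321064 was lost without control replicate 3 (0.23, adjusted p = 0.124), without PBLD replicate 1 (0.24, adjusted p = 0.163), with an intensity trend and robust eBayes (adjusted p = 0.0630) and after normexp (0.26, adjusted p = 0.350).

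BAK1, the partner pore former, has 1 probe here. It read 8.71, 8.74 and 8.61 in controls and 8.79, 8.97 and 8.86 in PBLD cells. The groups do not overlap, but the gap between PBLD replicate 1 and control replicate 2 was only 0.05. The change of 0.19 (SE 0.07, 95% interval 0.04 to 0.33) did not pass (limma adjusted p = 0.151, unadjusted p = 0.0142), and it passed under none of the 14 alternatives.

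BID, which caspase-8 cleaves to carry a signal from death receptors to mitochondria, rose on 2 of its 3 probes. The probe ILMN_1763386 read 8.83, 8.74 and 8.76 in controls and 8.99, 8.98 and 9.01 in PBLD cells. The PBLD arrays lay within 0.04 of each other, and every one stood above the controls. The change was 0.22 (SE 0.06, 95% interval 0.09 to 0.34, limma adjusted p = 0.0459), or 1.16-fold. The probe ILMN_2372413 read 8.33, 8.36 and 8.34 in controls and 8.53, 8.70 and 8.55 in PBLD cells. Here the controls lay close together, PBLD replicate 2 stood highest, and the change was 0.25 (SE 0.06, 95% interval 0.11 to 0.39, limma adjusted p = 0.0291), or 1.19-fold. The last BID probe, ILMN_2259495, lay at the background limit, above it on 5 arrays, with a change of 0.03 (adjusted p = 0.919). Both BID calls sat near the threshold. That of ILMN_1763386 held under 3 of 14 alternatives and was lost whichever single array was left out (adjusted p from 0.0691 to 0.168), and that of ILMN_2372413 held under 9, with p from 0.0687 to 0.134 for the 4 arrays whose removal ended it (all 3 controls and PBLD replicate 2). CASP8 itself, on its brightest probe, was above background on 5 arrays and had a change of -0.08 (adjusted p = 0.686).

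**Figure D2:**
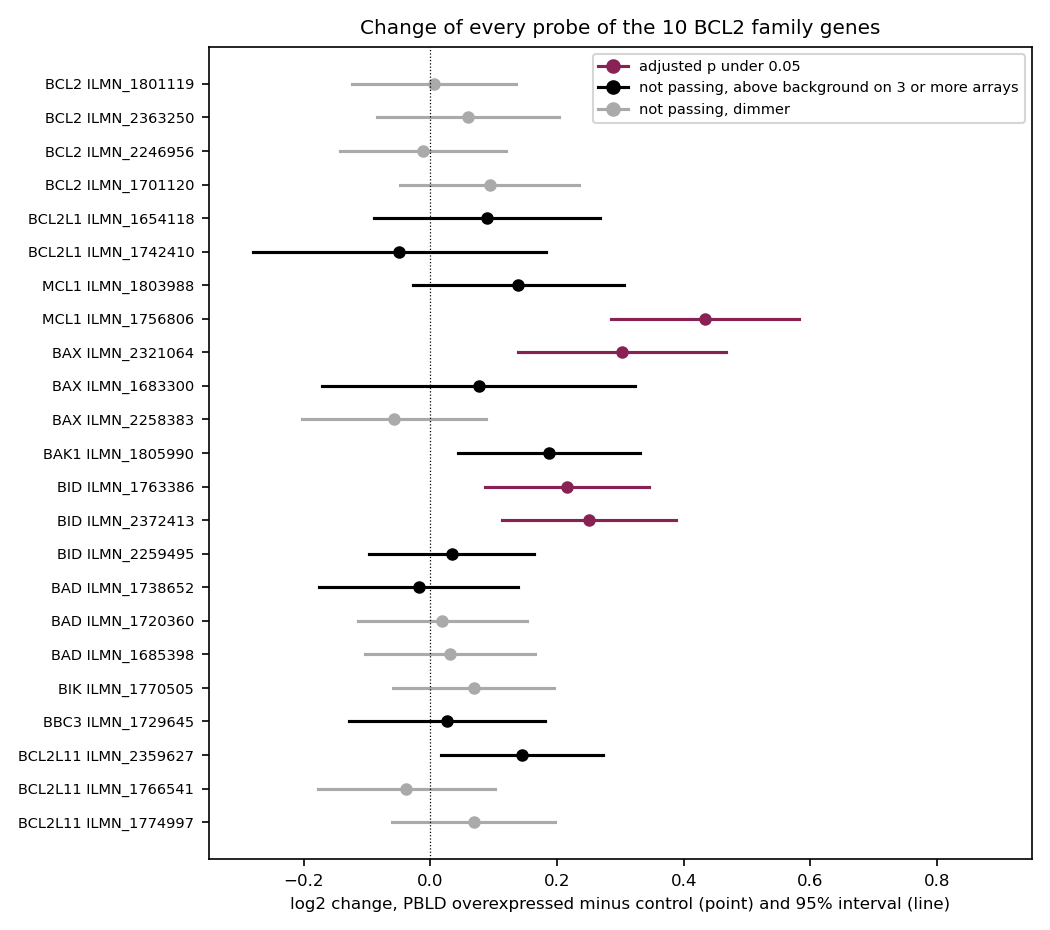
Log2 change of each of the 23 family probes, PBLD overexpressed minus control, as a point with its 95% interval from limma as a line. Coloured probes passed at an adjusted p under 0.05, black ones did not pass but were above background on at least 3 arrays, and grey ones were dimmer. The 4 coloured points lie between 0.22 and 0.43, and the intervals of the dim probes all include 0.

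The remaining BH3-only genes did not pass. BCL2L11, which encodes BIM and binds every guard of the family, had 1 of 3 probes above background, ILMN_2359627. It read 8.16, 8.13 and 8.10 in controls and 8.31, 8.28 and 8.24 in PBLD cells. All PBLD arrays lay above all controls, at levels not far over the background limit, and the change was 0.14 (SE 0.06, 95% interval 0.02 to 0.27, limma adjusted p = 0.244). BBC3, which encodes PUMA, read 8.94, 8.99 and 8.83 in controls and 9.02, 9.02 and 8.81 in PBLD cells. Its groups overlap, and the change was 0.03 (95% interval -0.13 to 0.18, adjusted p = 0.952). BAD, a sensor of growth factor signals that is disarmed by phosphorylation, read 8.97, 8.88 and 8.77 in controls and 8.88, 8.95 and 8.73 in PBLD cells on its 1 probe above background. The BAD groups overlap in the same way, with a change of -0.02 (95% interval -0.18 to 0.14, adjusted p = 0.969). BIK, a BH3-only protein of the endoplasmic reticulum, read 7.79 to 7.86 in controls and 7.86 to 7.90 in PBLD cells, not above background on any array, and its change was 0.07 (adjusted p = 0.754). By the brightest probe, the groups did not overlap for 5 of the 10 genes, BAX, BAK1, BID, BIK and BCL2L11, and for 23.4% of all genes.

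The windows around the starts of these genes are shown for the members that rose and for BBC3, which did not pass and shares a motif with them. RefSeq promoter windows of build GRCh38.p14, from 250 bases before to 50 after each start, were at hand for 8 of the 10 genes, as 14 windows. MCL1 and BIK had no entry. The E-box CACGTG, which reads the same on both strands and is bound by factors of the MYC and USF type, was searched with the FOXO core GTAAACA, each on both strands. CACGTG was found in 7.26% of all 35116 windows. Among the family it was found in 4 of the 14 windows, which belong to BAX, BID and BBC3, with the same BID site counted in overlapping windows. BAX holds 4 copies, beginning 138, 93, 45 and 14 bases before its start. BID holds 1, beginning 106 bases before one of its 5 annotated starts and 47 before another. GTAAACA was found in the window of BCL2L11 and in 3.42% of all windows. Capitals mark CACGTG in the lines below, which give the 250 bases before the BAX start (chr19:48954625-48954874, plus strand), then 30 bases of BID (chr22:17774072-17774101, minus strand) and 30 of BBC3 (chr19:47232882-47232911, minus strand).
BAX: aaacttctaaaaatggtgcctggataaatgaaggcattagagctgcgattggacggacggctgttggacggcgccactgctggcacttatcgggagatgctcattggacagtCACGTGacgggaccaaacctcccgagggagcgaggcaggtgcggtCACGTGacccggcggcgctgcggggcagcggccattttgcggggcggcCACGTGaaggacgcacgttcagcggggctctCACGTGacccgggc
BID: ttgtgtcctctcCACGTGgcctggggattc
BBC3: atggggagatttCACGTGagatatagatta
A match describes letters in a window and not a bound site, and no binding was measured in these cells. BBC3 carries the motif with a change of 0.03, and BAX and BID carry it with 0.30 and 0.22.

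**Figure D3:**
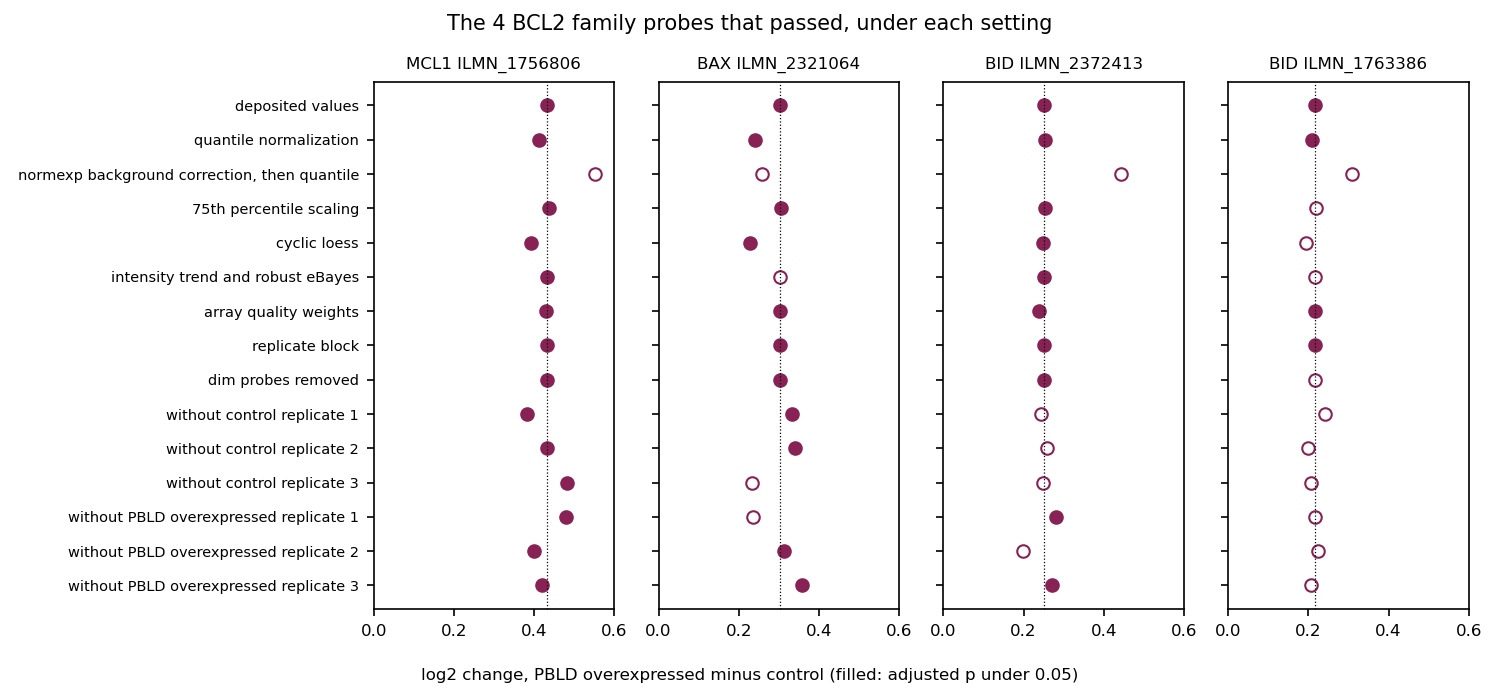
Log2 change of the 4 family probes that passed, for the deposited values and for 14 other settings, with filled points where the adjusted p is under 0.05 and a dotted line at the change on the deposited values. All points lie above 0, and MCL1 ILMN_1756806 is filled in all settings but normexp while BID ILMN_1763386 is open in 11.

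Outside the 10 genes, the family has further branches, and these held larger changes. Of 13 such genes 1 rose, 3 fell and 9 did not pass, with a median of -0.12 beside 0.01 over all genes, of which 5.81% were called higher and 4.2% lower. Only 7 of the 13 were above background on at least 3 arrays, and among all genes that bright 10.6% were called higher. A fit without the dim probes called 916 of 10880 genes lower. BNIP3L, a mitophagy receptor of the outer membrane also called NIX, read 11.26, 11.11 and 11.01 in controls and 10.34, 10.32 and 10.31 in PBLD cells. Its groups lie far apart, with a change of -0.81 (SE 0.07, limma adjusted p = 2.26e-06), or 1.75-fold lower, and a second probe changed by -0.53 (adjusted p = 0.000432). BNIP3, its close relative, changed by -0.66 (SE 0.07, adjusted p = 1.63e-05). BOK, a BAX-like protein, read 10.15, 10.02 and 9.70 in controls and 9.75, 9.58 and 9.32 in PBLD cells. It passed at -0.40 (SE 0.11, limma adjusted p = 0.0367) although PBLD replicate 1 lay above control replicate 3, and the call was lost after normexp (adjusted p = 0.114) and without control replicate 1 (-0.31, 0.204 as its adjusted p), control replicate 2 (-0.37, 0.163), PBLD replicate 2 (-0.42, 0.0550) or PBLD replicate 3 (-0.29, 0.153).

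BCL2L12, a family protein studied in glioma, went the other way. It read 11.08, 11.20 and 11.05 in controls and 11.65, 11.81 and 11.42 in PBLD cells, with every PBLD array above every control. The change was 0.52 (SE 0.09, limma adjusted p = 0.00114), or 1.43-fold, and its other probes gave 0.41 (adjusted p = 0.00308) and 0.25 (adjusted p = 0.0582). The call on its brightest probe was lost after normexp (0.49, adjusted p = 0.0651). BMF, a BH3-only gene tied to loss of attachment, did not pass on its brightest probe (-0.17, adjusted p = 0.359) but was lower on another expressed probe, ILMN_1695354 (-0.35, SE 0.07, adjusted p = 0.00686), which lost its call after normexp (adjusted p = 0.0517). The guard BCL2L2 (BCL-W) changed by -0.12 (adjusted p = 0.562) and the mitochondrial protein BCL2L13 by -0.22 (adjusted p = 0.371), though cyclic loess called BCL2L13 lower (-0.28, adjusted p = 0.0298). BCL2A1, BCL2L10, BCL2L15 and HRK were above background on no array, and BCL2L14 and PMAIP1, which encodes NOXA, on 1 control array each, with changes of -0.04 and -0.13.

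Downstream of the pores, 14 of 16 listed genes of mitochondrial release and caspases were measured, and 2 rose, 0 fell and 12 did not pass. Among genes bright enough to clear the background limit on 3 arrays or more, as 13 of these did, 10.6% were called higher, so the count is near the background, and the median was 0.09 beside 0.01 over all genes. VDAC3, a channel of the outer mitochondrial membrane, rose by 0.44 (SE 0.08, limma adjusted p = 0.00308), with 13.17, 13.27 and 13.08 in controls and 13.54, 13.81 and 13.49 in PBLD cells, which do not overlap. CASP2, an initiator caspase that can cleave BID, rose by 0.36 (SE 0.07, adjusted p = 0.00477) on its brightest probe, while others gave 0.23 (adjusted p = 0.0535) and -0.01. Both calls were lost after normexp (adjusted p = 0.0986 for VDAC3 and 0.244 for CASP2). Of 12 IAP and BAG survival genes 11 were measured, and 2 rose, 0 fell and 9 did not pass, beside the same 10.6% called higher among genes as bright as 9 of them, and the median was -0.04 beside 0.01. BIRC5, which encodes survivin and also serves in cell division, rose by 0.58 (SE 0.07, adjusted p = 6.77e-05), and a second probe by 0.34 (adjusted p = 0.0314). The co-chaperone BAG2 rose by 0.25 (SE 0.07, adjusted p = 0.0470), a call that held under 6 of 14 alternatives and was lost without control replicate 2 or 3 or any one PBLD array (adjusted p from 0.0775 to 0.207).

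Among genes that act on family proteins, 21 of 22 were measured, and 1 rose, 1 fell and 19 did not pass. Of all genes 10% were called in either direction, but 20 of the 21 regulators were above background on at least 3 arrays. Among all genes that bright 10.6% were called higher alone. With dim probes removed, 2160 of 10880 genes were called in either direction. The median of the regulators was 0.11 beside 0.01 over all genes. PIM1, a kinase that phosphorylates BAD, read 11.50, 11.32 and 11.24 in controls and 10.44, 10.48 and 10.28 in PBLD cells. The gap between its groups is several times the spread within them, and it was 1.93-fold lower (-0.95, SE 0.08, limma adjusted p = 1.26e-06). DDIT3, which encodes the stress factor CHOP and can raise BCL2L11, was higher by 0.33 (SE 0.06, adjusted p = 0.00342), with a call lost after normexp (0.46, adjusted p = 0.0777). FOXO3, a factor that can raise BCL2L11 and BBC3, changed by -0.02 (adjusted p = 0.961), and AKT1, a kinase of BAD, by -0.06 (adjusted p = 0.875). HUWE1, a ubiquitin ligase of MCL1, changed by -0.11 (adjusted p = 0.506) and USP9X, which removes ubiquitin from MCL1, by 0.02 (adjusted p = 0.972). Whether the differences of PIM1 or DDIT3 bear on the family was not tested.

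**Figure D4:**
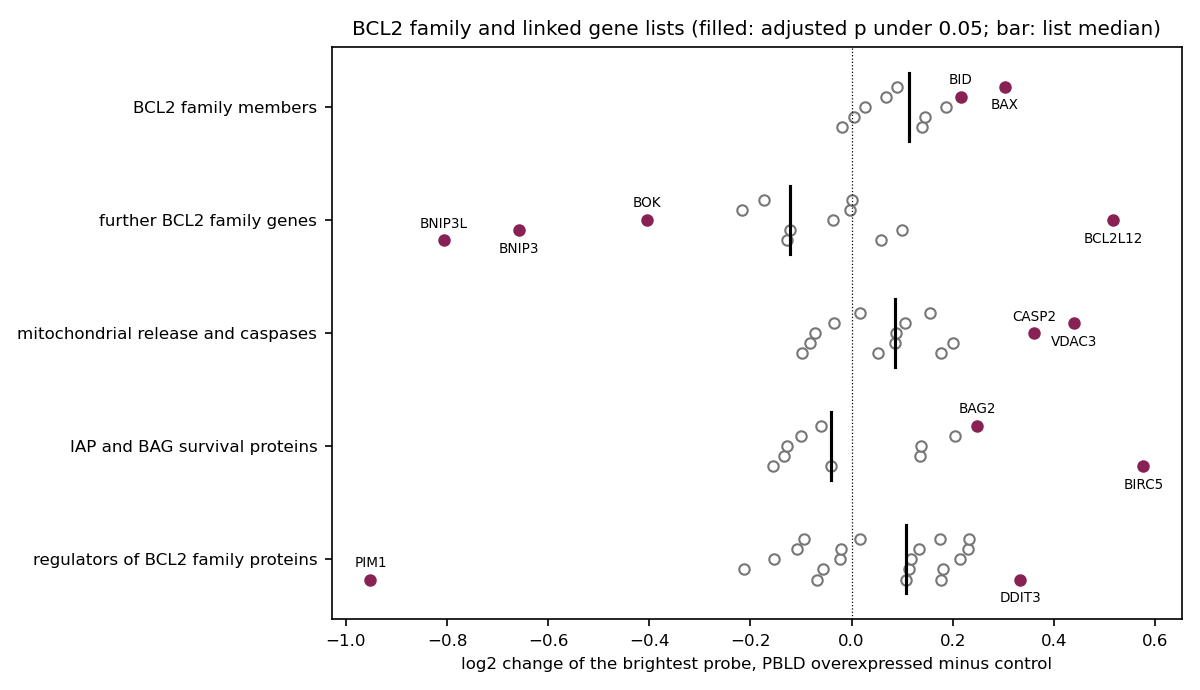
Log2 change of the brightest probe of each measured gene, PBLD overexpressed minus control, for the 10 family genes and the 4 linked lists, with filled and named points where the adjusted p is under 0.05 and a bar at each list's median. The family genes lie between -0.02 and 0.30, while the further family genes reach from -0.81 to 0.52 and the regulators from -0.95 to 0.33.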

How the data were processed

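The authors deposited log2 intensities of 47323 probes for 6 samples, and the scaling, background treatment and log step behind them are not given in the sources used here. BeadStudio is named per the submitters' processing notes, with no version. The deposited non-normalized signals were left aside, because none of the 12 per-sample columns could be tied to a sample by its labels. Members and gene lists were chosen with earlier results of these data known.

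Every probe was fitted with limma 3.58.1 (lmFit, eBayes, two-sided) in R 4.3.3, and p-values were adjusted by Benjamini-Hochberg across the whole array and called under 0.05. The background limit was the 95th percentile of 590 silent-gene probes per array, and folds of dim probes are understated. Of the probes 30113 carry 1 gene symbol, 8 several and 17202 none in GEO's platform annotation. Genes named are all members and further family genes, changed genes of the other lists (at most 4 per direction) and a panel (FOXO3, AKT1, HUWE1, USP9X and CASP8, with 1 further gene not analysed here). Of the list genes, 90 of 95 were measured. Same-numbered samples deviated together weakly, at r = 0.11, 0.08 and 0.06 over 18827 probes. The highest r with another number was -0.04, -0.003 and -0.003. Whether the numbers mark pairs is therefore not settled, and the main fit did not pair them. The alternatives were those of the closing section, and the steps were tested on simulated data. The number of arrays limits the precision. Figures used matplotlib 3.10.9 in Python 3.11.15.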

Additional observations from a re-analysis of the deposited data

How the results depend on the processing

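The count of changed family genes, 2 on the deposited values, was 2 after quantile normalization, with array quality weights and with the replicate block. It was 1 after 75th percentile scaling, after cyclic loess, with dim probes removed and with the mean of a gene's probes, and 0 after normexp followed by quantile normalization, with an intensity trend and robust eBayes and at a threshold of 0.01. Leaving out single arrays gave 0 to 1, being 0 without control replicate 3 or PBLD replicate 1. No family probe changed sign where it was called. The linked lists had 10 changed genes, 4 after normexp, and 8 to 10 without single arrays. Their count was 11 after quantile normalization, 12 after 75th percentile scaling and after cyclic loess, and 13 with the replicate block. All genes changed numbered 2006, 1164 higher and 842 lower. After normexp they numbered 647, and 1171 at a threshold of 0.01, with 1404 to 1950 without single arrays. The replicate block gave 2720. The split was 244 higher and 403 lower after normexp, 1290 and 1332 after quantile normalization, 1177 and 1475 after cyclic loess, 741 and 989 without control replicate 3 and 775 and 930 without PBLD replicate 2. The median of the family was 0.06 to 0.17 over all settings run, the mean of a gene's probes aside, for which it was not computed. Signal near background limits BCL2, BIK and BCL2L11, for which no detection p-value was used, and the cause of the lost calls was not tested.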
